A study of Rattus norvegicus with 20 samples.

Results

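Sim2 and Tfap2b are 2 transcription factor genes that were each high in the cultured epithelial cells of 1 rat tissue, Sim2 in esophagus and Tfap2b in footpad. They were chosen because the esophagus level of Sim2 was lost after the cells had been transplanted into skin, whereas the footpad level of Tfap2b was kept. Each gene was read from the single probe set that carried its symbol alone, 10750406 for Sim2 (Entrez gene 304071) and 10922096 for Tfap2b (Entrez gene 301285), so that 2 of 29215 probe sets, or 2 of 14506 gene symbols, are described. The levels of both genes in all tissues and at both stages were used to choose them, and are therefore given as descriptions without a test.

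The donors were Sprague-Dawley rats at postnatal day 200, all with the CZ-004 transgene that drives EGFP from an actin promoter, and the tissues taken were trachea, esophagus, oral mucosa, vagina and footpad. They were cultured on irradiated mouse 3T3-J2 fibroblasts and sorted on EGFP (before transplantation), or injected into the skin of newborn OF1 mice, carried for months on the back of athymic mice, recovered from the grafts, cultured again on the same feeder cells and sorted on EGFP (after transplantation). Each of the 10 groups holds 2 duplicate cultures, 1 array each, and no label says whether they came from different rats or grafts, so every p-value below measures only the spread between duplicate cultures. The sort takes out mouse cells but would keep any rat cell, epithelial or not. The titles carry Roman numerals, which the study uses for passages, and apart from vagina these differ before and after transplantation, so passage and transplantation cannot be told apart there.

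Sim2 belongs to the Single-minded family of bHLH-PAS proteins, which bind DNA as heterodimers with Arnt or Arnt2. It mostly acts as a repressor, and mice that lack it are born with a cleft palate. Tfap2b (AP-2 beta) is 1 of 5 AP-2 proteins, which bind GC-rich elements as dimers and act in neural crest, face, limb, kidney and skin. In man, mutations of this gene cause Char syndrome, with changes of the face, the hand and the ductus arteriosus.

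All values are log2 RMA values, on which a difference of 1 is a 2-fold difference, given as mean ± SD with n = 2 arrays per group or as a difference ± SE of the limma fit. The array medians lay between 5.31 and 5.55, and Pearson's r between duplicate arrays was 0.991 to 0.996. The 7 measured keratinocyte markers averaged 10.77 to 11.17 in every array, so all 10 groups expressed them. In footpad before, Epcam (7.77) and Cdh1 (9.81) were lower than in the other tissues before (at least 9.17 and 10.58). The other markers were not lowest there. Because these are bulk cultures, fewer cells that express a gene and less RNA per cell cannot be told apart.

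Sim2 was high in 1 group only, the esophagus cells before transplantation, where its 2 arrays read 6.97 and 6.92 (6.95 ± 0.04). After transplantation the esophagus arrays read 3.99 and 4.15 (4.07 ± 0.12), a difference of −2.88 ± 0.13, or 7.34-fold lower on this scale. The level after lay in the low range of all other groups and under 4.77, below which the means of the lowest 40% of probe sets lie. Since RMA can shrink differences at such levels, this fold can be too small. Over the 18 other arrays, the recovered esophagus cells among them, Sim2 lay between 3.75 and 4.57 with a median of 4.05. Before transplantation it read 3.75 and 3.97 in oral mucosa, 4.08 and 3.90 in vagina, 4.57 and 4.33 in footpad, and 4.0 and 4.02 in trachea. After transplantation it read 4.47 and 4.38 in oral mucosa, 4.16 and 4.07 in vagina, 4.44 and 4.04 in footpad, and 4.03 and 3.94 in trachea. The esophagus arrays before transplantation thus stood 2.5 above the next group, footpad before (4.45 ± 0.17), and from there down to oral mucosa before (3.86 ± 0.16) each group overlapped with its neighbour in the order of means.

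Outside esophagus, Sim2 moved little between the stages. The difference after minus before was 0.56 ± 0.13 in oral mucosa, where both recovered arrays lay above both arrays before, 0.12 in vagina, −0.21 in footpad and −0.02 in trachea. In the last 3 of these the arrays before and after overlapped or differed by less than 2 standard errors of the fit (0.13). Among 29215 probe sets, the esophagus difference of Sim2 was the number 5 from the lowest, and its difference between esophagus and the mean of the other 4 tissues before transplantation (2.87 ± 0.10) was number 4 from the highest. After transplantation the same tissue difference was −0.12 ± 0.10. Limma called 1.07% of all probe sets in esophagus after against before, 0.517% higher and 0.558% lower.

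Tfap2b was highest in footpad cells at both stages, with 7.24 and 7.41 before (7.32 ± 0.12) and 7.08 and 7.21 after transplantation (7.15 ± 0.09). The difference of −0.18 ± 0.13 is close to the SD of duplicates pooled over the groups (0.126). The 16 arrays of the other 4 tissues reached from 3.94 to 6.36 with a median of 4.58, so none of them overlapped with the 4 footpad arrays. Before transplantation Tfap2b read 5.4 and 5.21 in oral mucosa, 4.24 and 4.14 in vagina, 4.40 and 4.18 in esophagus, and 4.41 and 4.41 in trachea. After transplantation it read 6.20 and 6.36 in oral mucosa, 5.37 and 5.70 in vagina, 4.85 and 4.75 in esophagus, and 4.13 and 3.94 in trachea.

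**Figure D1:**
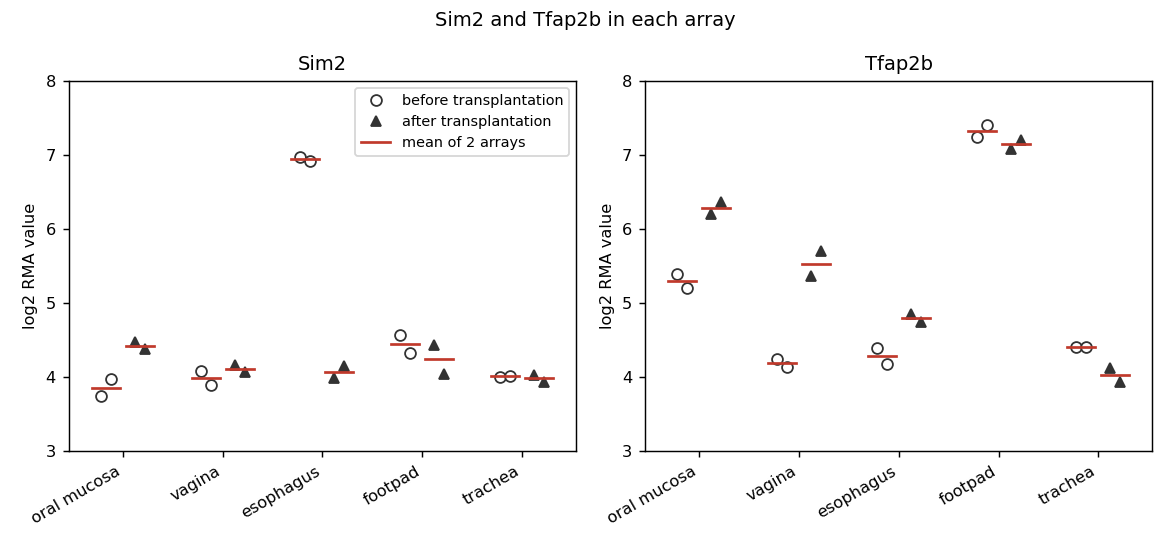
Level of Sim2 (left) and Tfap2b (right) as log2 RMA values in each of the 20 arrays, by tissue, with open circles before transplantation, filled triangles after it and red lines at the mean of 2 arrays. Sim2 stands apart only in esophagus before (6.95 against 4.07 after), and Tfap2b stays high in footpad (7.32 and 7.15) while it is higher after transplantation in oral mucosa, vagina and esophagus. The vertical axes start at 3.

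While the footpad level stayed, Tfap2b was higher after transplantation in 3 other tissues. The difference was 0.98 ± 0.13 in oral mucosa (1.97-fold), 1.34 ± 0.13 in vagina (2.54-fold) and 0.51 ± 0.13 in esophagus (1.42-fold), and in each of these tissues both recovered arrays lay above both arrays before. In trachea the difference was −0.37 ± 0.13, with both recovered arrays below both arrays before. The distance of footpad to the mean of the other 4 tissues accordingly went from 2.77 ± 0.10 (6.84-fold) to 1.98 ± 0.10 (3.95-fold), and its distance to the next tissue, oral mucosa at both stages, from 2.02 to 0.87. In the order of all 10 group means, Tfap2b in recovered vagina (5.54 ± 0.23) overlapped with oral mucosa before (5.3 ± 0.14), and esophagus before (4.29 ± 0.15) with vagina before (4.19 ± 0.07). All other neighbours in that order were apart, the closest being trachea before and esophagus before at 0.12.

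The spread of the group means was alike for both genes, 3.08 (8.47-fold) for Sim2 and 3.29 (9.77-fold) for Tfap2b, beside a pooled SD of duplicates of 0.133 and 0.126. Tfap2b, with a mean of 5.33 over the 20 arrays, passed a filter that leaves out the 40% of probe sets with the lowest mean (4.77), and Sim2, with a mean of 4.41, did not, so 1 of 2 members would remain under it. With each array centered on its own median, the differences in oral mucosa shrank by 0.14, to 0.42 for Sim2 and 0.84 for Tfap2b, and no other tissue moved by more than 0.07.

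As a description of how restricted each gene was, the tissue mean minus the highest mean of the other 4 tissues was ranked over the 14506 symbols. For esophagus before transplantation Sim2 ranked number 1 with a gap of 2.5. Next came Hoxc4, a homeobox gene of the HoxC cluster, with 1.89, Dtx4, a Deltex protein of the Notch pathway, with 1.35, Slc35g1, a solute carrier, with 1.29 and Aqp9, a water and glycerol channel, with 1.28. After transplantation the gap of Sim2 was −0.35, at rank 10255, and Dtx4 was at −0.35 too, whereas Hoxc4, Slc35g1 and Aqp9 kept gaps of 0.51, 0.55 and 0.24.

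For footpad before transplantation Tfap2b ranked number 4 with a gap of 2.02. Above it stood Cd200r1, the receptor of Cd200, with 3.62, Gnai1, a G protein subunit, with 2.31 and Krt10, a keratin of cornifying epidermis, with 2.18, and below it Emp3, an epithelial membrane protein, with 1.98. After transplantation Tfap2b kept a gap of 0.87 (rank 240) and Krt10 one of 1.88 (rank 47). The gaps of Cd200r1, Gnai1 and Emp3 were −2.15, −0.72 and −0.17, so that in these recovered cells footpad was no longer the highest tissue.

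Sim2 and Tfap2b can also be set beside all probe sets that limma called higher in their tissue than in the other 4 before transplantation, at an adjusted p under 0.05 and a fold over 2. In esophagus 246 of 29215 probe sets were called (0.842%), 83 of them higher (0.284%). The median difference of these 83, which were chosen on the arrays before transplantation, was 1.31 before and 0.74 after. Sim2 went from 2.87 to −0.12, and 9 of the 83, Sim2 included, lay at or under that value afterwards. After transplantation 350 probe sets were called in esophagus (1.2%), 158 of them higher (0.541%) and 192 lower (0.657%). Of these, 31 were on both lists, which is 37.3% of the list before and 19.6% of the list after, and Sim2 was not among them.

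In footpad 631 probe sets were called before transplantation (2.16%), 163 of them higher (0.558%). Their median difference was 1.32 before and −0.18 after, with 98 of the 163 below 0 in recovered cells. Tfap2b went from 2.77 to 1.98, and 11 of the 163 lay above it afterwards. After transplantation 1091 probe sets were called (3.73%), 677 of them higher (2.32%), and 26 were on both lists, which is 16.0% of the list before and 3.84% of the list after. Tfap2b was one of the 26. Both genes were chosen for these patterns, so nothing is read from their place on these lists.

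**Figure D2:**
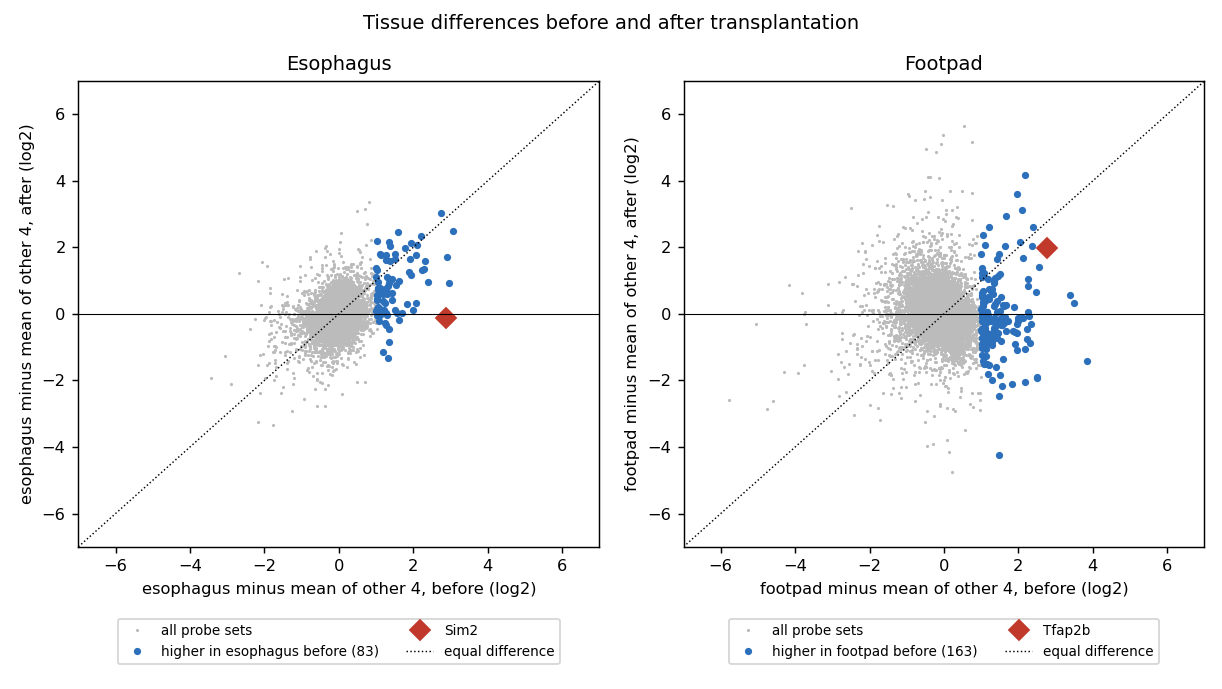
Difference between a tissue and the mean of the other 4 tissues before (horizontal axis) and after transplantation (vertical axis), log2, for all 29215 probe sets in esophagus (left) and footpad (right), with the probe sets called higher before in blue and the dotted line at equal differences. Sim2 falls on the line at 0 after transplantation (−0.12), while Tfap2b stays at 1.98, above most of the 163 blue points of footpad.

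Markers of other rat cells that a culture of these tissues could hold were read in the same arrays. Skeletal muscle lies in the wall of the rat esophagus, and the mean of its 12 measured markers was 4.81 to 4.83 in the esophagus arrays before transplantation, where Sim2 was high, and 4.54 to 5.05 over all 20 arrays. Limma called 0 of these 12 between esophagus and the other 4 tissues before transplantation (0 at an unadjusted p under 0.05) and 0 after against before (2 unadjusted). The shares of all probe sets called were 0.842% and 1.07%, so 0 of 12 is near them. Without the fold threshold, 2166 and 3877 of the 29215 probe sets passed in these comparisons. The 12 fibroblast markers averaged 5.17 to 5.37 in esophagus before and 5.26 to 5.29 after, below the 6.42 to 6.69 of vagina, trachea and footpad before. In esophagus before, 5 of the 12 were lower than in the other 4 tissues and 0 higher, beside 0.558% and 0.284% of all probe sets. The fibroblast markers were as low in oral mucosa before (5.13 to 5.31), where Sim2 lay at 3.86. They were low too in all recovered cells, from 5.08 in footpad to 5.55 in oral mucosa, where Sim2 was low. The 7 markers of esophageal mucosa averaged 9.65 to 9.68 in esophagus before and 7.95 to 8.11 after. There 4 of 7 were called lower after transplantation, beside 0.558% of all probe sets. In oral mucosa before, this list was higher still (10.30 to 10.31) and Sim2 lay at 3.86. The list fell as well where Sim2 was not high, to 7.03 to 7.16 in recovered oral mucosa. In vagina it averaged 7.73 to 8.04 before and 5.97 to 6.08 after. It was higher after transplantation in footpad (6.16 to 6.22 before, 6.63 to 6.77 after) and trachea (8.14 to 8.17 before, 8.44 to 8.60 after). The part of these markers in the loss of Sim2 was not tested.

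In footpad the fibroblast markers changed between the stages while Tfap2b stayed. They averaged 6.62 to 6.69 before, where Tfap2b was at 7.32, and 5.08 to 5.15 after transplantation, where it was at 7.15. Before transplantation, 4 of 12 (Dcn, Lum, Pdgfra and Twist1) were higher in footpad than in the other 4 tissues. This stood beside 0.558% of all probe sets. After transplantation 0 of 12 were higher, beside 2.32%. In either direction, 7 of the 12 had an unadjusted limma p under 0.05 after transplantation. Among recovered tissues, Col1a1, Col1a2, Col3a1, Col5a1, Dcn, Twist1 and Twist2 had their lowest mean in footpad, and the other markers did not. Of the same 12, limma called 1 higher after transplantation in oral mucosa (3.65% of all probe sets called), 6 lower in vagina (2.21%) and 6 lower in trachea (1.38%), where Tfap2b differed by 0.98, 1.34 and −0.37. Their part in these differences was not tested. Melanocytes and Schwann cells derive from neural crest, where AP-2 proteins act, and the mean of their 8 measured markers was 4.27 to 4.50 in footpad before and 4.82 to 4.86 after, against at most 4.42 in the other recovered tissues. Mitf (1.87) and Ngfr (2.41) were the 2 called in recovered footpad, beside 3.73% of all probe sets. Between the stages in footpad they differed by 1.87 and 2.23, whereas the other 6 markers lay between −0.20 (Tyrp1) and 0.06 (Sox10) and were not called, the melanocyte genes Tyr (−0.02) and Mlana (−0.12) among them. The part of these markers in the level of Tfap2b was not tested. Of the 7 measured markers of footpad epidermis, Krt10, Krt1 and Krt16 were higher in footpad before, beside 0.558% of all probe sets, while Krt9, the defining keratin of palm and sole, lay between 4.62 and 5.3 in all arrays and was not called. Krt16 was called higher in esophagus before too (12.00 against 12.10 in footpad), and it was lower in footpad after transplantation than before (−1.61 ± 0.12). For eccrine sweat glands, which footpad skin holds, 0 of 13 markers were higher and 4 lower in footpad before, beside 0.558% and 1.6% of all probe sets, and 2 were higher and 1 lower after, beside 2.32% and 1.42%. Merkel cell markers (5 measured) gave 0 higher in footpad at either stage and 2 lower after, beside 1.42% of all probe sets lower. Immune cell markers (7 measured) gave 0 higher at either stage and 1 lower before, beside 1.6% lower. With 0.558% and 2.32% of all probe sets higher before and after, 0 higher among so few markers is near those shares.

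The partners of Sim2 were measured with it. Arnt, with which Single-minded proteins pair, was expressed in every group, with means from 8.45 in recovered esophagus to 9.15 in recovered footpad, and read 8.87 and 8.62 in esophagus before and 8.41 and 8.48 after transplantation. Its difference in esophagus, −0.29 ± 0.09, did not pass the test (limma adjusted p 0.0508). Arnt2, the other partner, stayed within 0.24 over all groups, between 5.12 and 5.35. Sim1, the paralog of Sim2, lay between 4.04 and 4.67 in all groups, with 4.36 ± 0.14 in esophagus before and 4.38 in esophagus after. Sim1 and Arnt2 thus lacked the high group that Sim2 showed.

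Of 12 measured bHLH-PAS genes other than Sim2, limma called 0 between esophagus and the other 4 tissues before transplantation (4 at an unadjusted p under 0.05) and 0 after (5 unadjusted). The shares of all probe sets called were 0.842% and 1.2%, so 0 of 12 is near them. Without the fold threshold, 2166 and 5289 of the 29215 probe sets passed in these comparisons. After against before in esophagus, where 1.07% of all probe sets were called, 1 of the 12 was lower. This was Epas1 (HIF-2 alpha, which also pairs with Arnt), with 9.34 and 9.31 before and 7.78 and 7.73 after (−1.57 ± 0.12, limma adjusted p 1.95e-06). Epas1 was also lower after transplantation in oral mucosa (−1.83 ± 0.12, 1 of 12 called, beside 3.65% of all probe sets) and vagina (−2.15 ± 0.12, 1 of 12, beside 2.21%), 2 tissues in which Sim2 was not high before. In footpad Ahr, the dioxin receptor, went from 6.40 and 6.64 to 8.63 and 8.69 (2.14 ± 0.10, limma adjusted p 1.88e-09), the 1 of 12 called there beside 6.92% of all probe sets. The response of esophagus minus that of footpad was called for 9.4% of all probe sets, and for Ahr alone among the 12 (−2.90 ± 0.14, limma adjusted p 6.20e-09). In trachea 0 of 12 were called (3 at an unadjusted p under 0.05) beside 1.38% of all probe sets, and Sim2 differed by −0.02. The median difference of the 12 genes was −0.13 in esophagus, against −0.01 over all probe sets.

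The paralogs of Tfap2b were expressed more evenly than it. Tfap2a and Tfap2c, the AP-2 genes of the interfollicular epidermis, ranged over 0.82 and 1.54 between groups, beside 3.29 for Tfap2b. Tfap2c was highest in footpad before (8.90 and 8.87) and lowest in trachea before (7.24 and 7.46), and in footpad it lay 0.72 ± 0.07 above the other 4 tissues (limma adjusted p 4.68e-06), under the fold of 2. Tfap2a read 6.83 and 7.32 in footpad before and 7.44 and 7.61 after. Tfap2d lay between 3.80 and 4.41 in all groups. Kctd15, an inhibitor of AP-2, had its highest mean in recovered footpad (8.24 ± 0.02) and its lowest in trachea before (6.99 ± 0.07).

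The AP-2 list held 11 measured genes, which were AP-2 paralogs and cofactors and also Tfap4 (AP-4), which is neither. Of these 11, limma called 0 in footpad against the other 4 tissues before transplantation (7 at an unadjusted p under 0.05), 0 after (8 unadjusted) and 0 in footpad after against before (6 unadjusted). Of all probe sets, 2.16%, 3.73% and 6.92% were called in these comparisons, so 0 of 11 is near those shares. Without the fold threshold, 7813, 8331 and 9205 of the 29215 probe sets passed in them, so nothing is read from the unadjusted counts. The median difference of the 11 between footpad and the other tissues was 0.20 before and 0.36 after, against 0.05 and 0.01 over all probe sets. Tfap2e was the 1 gene of this list called in any tissue, in oral mucosa, beside 3.65% of all probe sets. It went there from 5.86 and 6.27 to 7.12 and 7.17 (1.08 ± 0.15, limma adjusted p 9.99e-05). That tissue is also one of the 3 in which Tfap2b was higher after transplantation. The call of Tfap2e ended with arrays centered on their medians (0.94) and without the first oral mucosa array before transplantation (0.87).

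**Figure D3:**
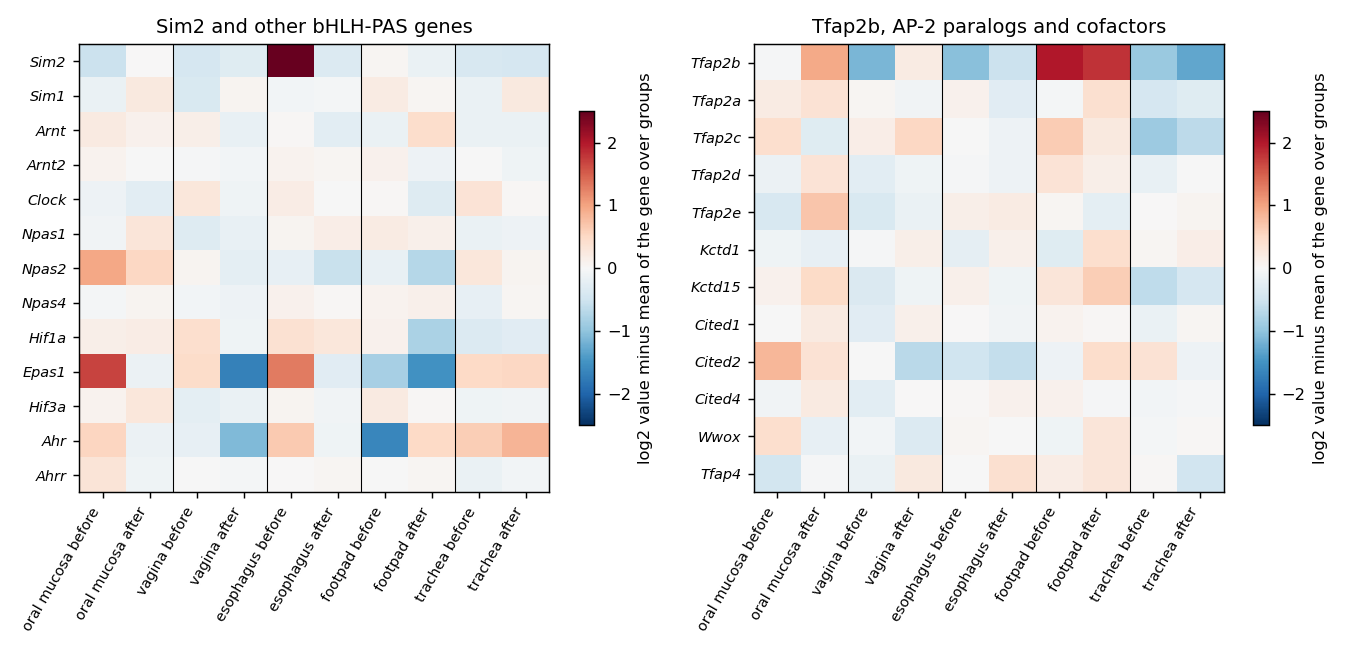
Mean log2 RMA value of each group minus the mean of that gene over the 10 groups, for Sim2 and 12 other bHLH-PAS genes (left) and for Tfap2b and the 11 genes of the AP-2 list (right), with red above and blue below the gene's own mean and colors limited at 2.5. The AP-2 list holds paralogs and cofactors and also Tfap4 (AP-4), which is neither. Sim2 has 1 dark red cell, in esophagus before (2.54), which none of its relatives has, and Tfap2b is red in footpad at both stages while Tfap2a, Tfap2d and Tfap2e stay pale there.

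Among genes reported elsewhere to respond to Sim2, the stromelysin gene Mmp3 differed most between esophagus and the other tissues. In mammary cells the short form of Sim2 represses Mmp3. Mmp3 read 4.87 and 5.11 in esophagus before, where Sim2 was high, and no other group lay under 6.58. It was 3.43 ± 0.16 lower there than in the mean of the other 4 tissues (limma adjusted p 1.35e-08), and after transplantation it rose in esophagus to 6.58 and 7.06 (1.83 ± 0.21, limma adjusted p 6.33e-05). At 6.82 ± 0.34 it was also the lowest of the 5 recovered tissues, 1.93 ± 0.16 under the other 4 (limma adjusted p 2.12e-06), and Sim2 was at 4.07 ± 0.12 there. Mmp3 rose after transplantation also in oral mucosa (1.72 ± 0.21) and vagina (1.25 ± 0.21) and fell in footpad (−1.19 ± 0.21), in which Sim2 differed by 0.56, 0.12 and −0.21. The part of Sim2 in the level of Mmp3 was not tested.

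The other measured genes of this list gave less. Ptgs2, the inducible cyclooxygenase, read 7.24 and 7.0 in esophagus before, −1.06 ± 0.15 from the other 4 tissues (limma adjusted p 3.08e-04), and 7.57 and 7.75 after, a difference of 0.54 that was not called. It was not the lowest there, as oral mucosa before lay at 6.94, and its call before transplantation ended without 1 oral mucosa array (−0.98) or 1 esophagus array (−0.93). Snai2 and Bnip3 were not called in any of the esophagus or footpad comparisons. In all, 2 of 4 measured genes were lower in esophagus before, beside 0.558% of all probe sets, and 1 of 4 was higher in esophagus after against before, beside 0.517%. The bases before the start of the rat Mmp3 gene are shown because this gene lay opposite to Sim2 in esophagus before. The 250 bases are those of RefSeq assembly GRCr8, chr8:12925031-12925280, plus strand, with capitals at the TATA box.
Mmp3: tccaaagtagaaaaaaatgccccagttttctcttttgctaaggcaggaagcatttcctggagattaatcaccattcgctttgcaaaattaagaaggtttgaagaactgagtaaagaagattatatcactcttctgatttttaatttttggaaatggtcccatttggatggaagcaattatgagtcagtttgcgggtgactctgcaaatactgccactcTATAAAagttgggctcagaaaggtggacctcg
They hold 0 matches to ACGTG, the core that Single-minded and Arnt dimers bind, on either strand. Most promoters of this length hold none either, as 16.6% of 33469 in the rat hold at least 1.

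**Figure D4:**
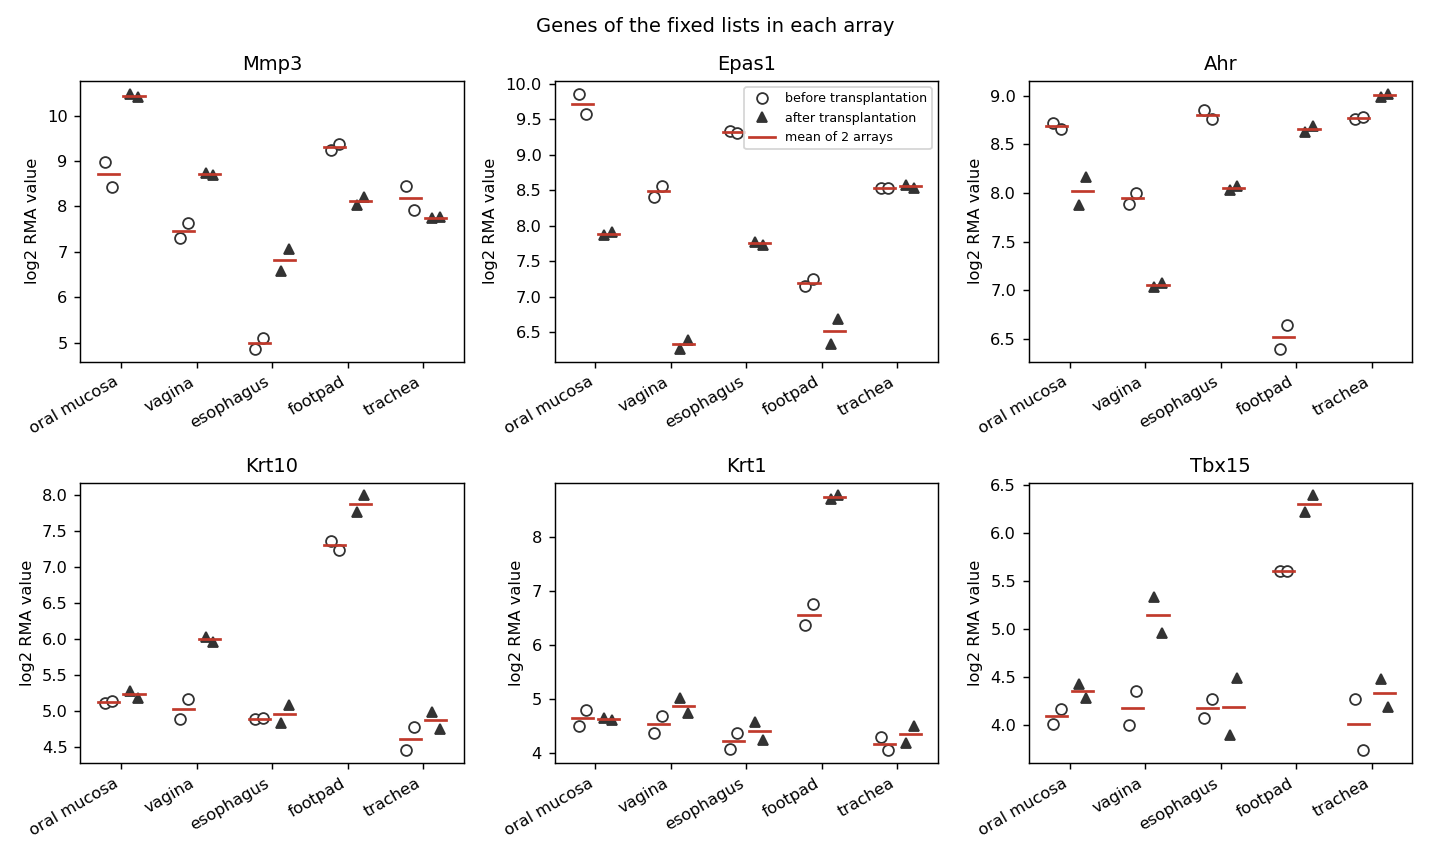
Level of 6 genes as log2 RMA values in each of the 20 arrays, by tissue, with open circles before transplantation, filled triangles after it and red lines at the mean of 2 arrays. Each panel has its own vertical axis, none of which starts at 0. Mmp3 is lowest in esophagus at both stages (4.99 before, 6.82 after), Epas1 is lower after transplantation in oral mucosa, vagina and esophagus, and Krt10, Krt1 and Tbx15 are highest in footpad at both stages, as Tfap2b was.

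Among 14 measured genes with AP-2 sites described in their regulatory regions, the keratins of cornifying epidermis were highest in footpad at both stages, as Tfap2b was. Krt10 read 7.36 and 7.24 in footpad before and 7.76 and 7.99 after, 2.39 ± 0.11 and 2.62 ± 0.11 above the other 4 tissues (limma adjusted p 1.93e-09 and 4.60e-10). Krt1, its partner, read 6.36 and 6.76 before and 8.70 and 8.76 after, 2.17 ± 0.15 and 4.16 ± 0.15 above the other tissues. Between the stages in footpad Krt1 rose by 2.17 ± 0.18 (limma adjusted p 5.27e-07), whereas Tfap2b differed by −0.18. Both keratins were under 5.2 in all arrays of the other tissues before transplantation. In recovered vagina, where Tfap2b was 1.34 higher than before, Krt10 read 6.03 and 5.96 against 4.88 and 5.17 before. In recovered oral mucosa, where Tfap2b reached 6.28, Krt10 read 5.28 and 5.18 and Krt1 read 4.65 and 4.62.

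Erbb3, a receptor of neuregulins, went the other way between the stages. It was 1.30 ± 0.12 lower in footpad than in the other tissues before transplantation and 1.79 ± 0.12 higher after it (5.45 and 5.71 against 7.99 and 8.01), with Tfap2b at 7.32 and 7.15. In all, 2 of these 14 genes were higher and 1 lower in footpad before, beside 0.558% and 1.6% of all probe sets, and 3 were higher and 0 lower after, beside 2.32% and 1.42%. Mmp2 fell in footpad after transplantation by 1.40 ± 0.14, together with the fibroblast markers given above. The promoter of Krt10, the gene of this list nearest to Tfap2b in pattern, is shown as 250 bases of GRCr8, chr10:84839161-84839410, minus strand, with capitals at the TATA box.
Krt10: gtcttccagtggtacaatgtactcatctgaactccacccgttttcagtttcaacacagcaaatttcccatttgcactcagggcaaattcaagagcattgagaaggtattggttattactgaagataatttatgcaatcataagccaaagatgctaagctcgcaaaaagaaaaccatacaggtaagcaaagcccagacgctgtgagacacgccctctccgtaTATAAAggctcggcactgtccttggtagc
It holds 0 matches to the AP-2 consensus GCCNNNGGC, which 12.6% of the 33469 promoters hold.

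Regional factors of the foregut and of the limb were counted as neighbours of Sim2 and Tfap2b in the plan of the body. Of 17 measured foregut factors, 4 were higher in esophagus than in the other tissues before transplantation and 0 lower, beside 0.284% and 0.558% of all probe sets, namely Pitx1 (1.43 ± 0.08), Sox2 (1.35 ± 0.09), Pax9 (1.03 ± 0.11) and Hoxa2 (1.02 ± 0.12). Of these, Pax9 was still called higher after transplantation, with 9.06 and 8.96 before and 8.46 and 8.58 after (1.33 ± 0.11 above the other recovered tissues). Sox2 was 0.93 ± 0.09 above them (limma adjusted p 1.04e-05), under the fold of 2. None of the 4 was called lower in esophagus after against before. Sox2 (−0.63) and Pax9 (−0.49) did fall there, under the fold of 2 (limma adjusted p 0.00241 and 0.0367). Hoxa2 went from 5.16 to 4.36 in esophagus and then lay under recovered vagina (4.59), so it was no longer highest in esophagus, and neither was Sim2. Isl1 rose in recovered esophagus from 5.12 and 5.26 to 6.96 and 6.98 (1.78 ± 0.12), and Tbx3 rose by 1.47 ± 0.12. The calls of Pax9 and Hoxa2 before transplantation rested on single arrays, since without the first esophagus array their values were 0.99 and 0.76. Footpad lay far below the other tissues for Pitx1 and Pax9, and without the footpad arrays esophagus was 0.80 and 0.82 above the other 3 tissues, under the fold of 2, while Sox2 (1.11) and Hoxa2 (1.04) were still called.

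Of 14 measured limb and distal skin factors, Tbx15 was the 1 higher in footpad, at both stages, and 0 were lower, beside 0.558% and 1.6% of all probe sets before and 2.32% and 1.42% after. It read 5.61 and 5.61 before and 6.22 and 6.39 after, 1.49 ± 0.17 and 1.80 ± 0.17 above the other tissues (limma adjusted p 1.55e-05 and 1.36e-06). In recovered vagina, where Tfap2b was higher too, Tbx15 read 5.34 and 4.96 against 4.0 and 4.36 before. Dlx5 fell in footpad by 1.5 ± 0.17. Of the foregut factors 1 was higher (Tbx3) and 3 were lower in footpad before, and 1 was higher (Irx3, 1.19 ± 0.10) and 3 were lower after, beside the same shares. The call of Tbx3 ended with arrays centered on their medians (0.89) and when 1 of 5 arrays was left out in turn (0.95 at the lowest), and that of Pax9 before ended without the first footpad array (−0.81). Sox2 and Pax9 were lower at both stages, Pitx1 (−2.74 ± 0.08) before and Isl1 (−1.87 ± 0.10) after.

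The genes whose pattern over the 10 group means was most like that of Sim2 were sought among 3390 symbols whose group means ranged over at least 1. The correlations are descriptions over 10 means that share their arrays, and say nothing of shared control. For Sim2 the highest Pearson's r were 0.88 for Hoxc4, 0.85 for Hoxc5, 0.82 for Notch3, a Notch receptor, 0.78 for Adcy8, an adenylate cyclase, and 0.78 for Hoxa2, followed by Rps4y2, Dtx4, Ddo, LOC366310 and Tmem125 at 0.77 to 0.71. In esophagus Hoxc4 went from 6.65 to 5.17, Hoxc5 from 5.19 to 4.37 and Notch3 from 8.58 to 7.79, so that each lost part of its level where Sim2 fell by 2.88. After transplantation Hoxc4 and Hoxc5 were still above the other recovered tissues (4.66 and 3.89 at the highest), and Sim2 was not. Ranked instead by Spearman's rho over the 20 arrays, 1 of these 10 (Dtx4) stayed among the first 10.

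For Tfap2b the highest Pearson's r were 0.91 for Slc6a4, the serotonin transporter, 0.89 for Cspg4, a proteoglycan, 0.89 for Hr, the hairless corepressor, 0.89 for Stim1, a calcium sensor, and 0.88 for Krt10, followed by Klk7, Ankh, Sfr1, Sdr16c5 and Evl at 0.88 to 0.85. Slc6a4 was at 7.22 in footpad before and 8.78 after, with 6.42 and 6.72 in the next tissue. Hr was at 8.83 and 8.89 in footpad, but in recovered oral mucosa it reached 9.13, a tissue in which Tfap2b was higher after transplantation too. By Spearman's rho over the 20 arrays 5 of these 10 stayed among the first 10.

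**Figure D5:**
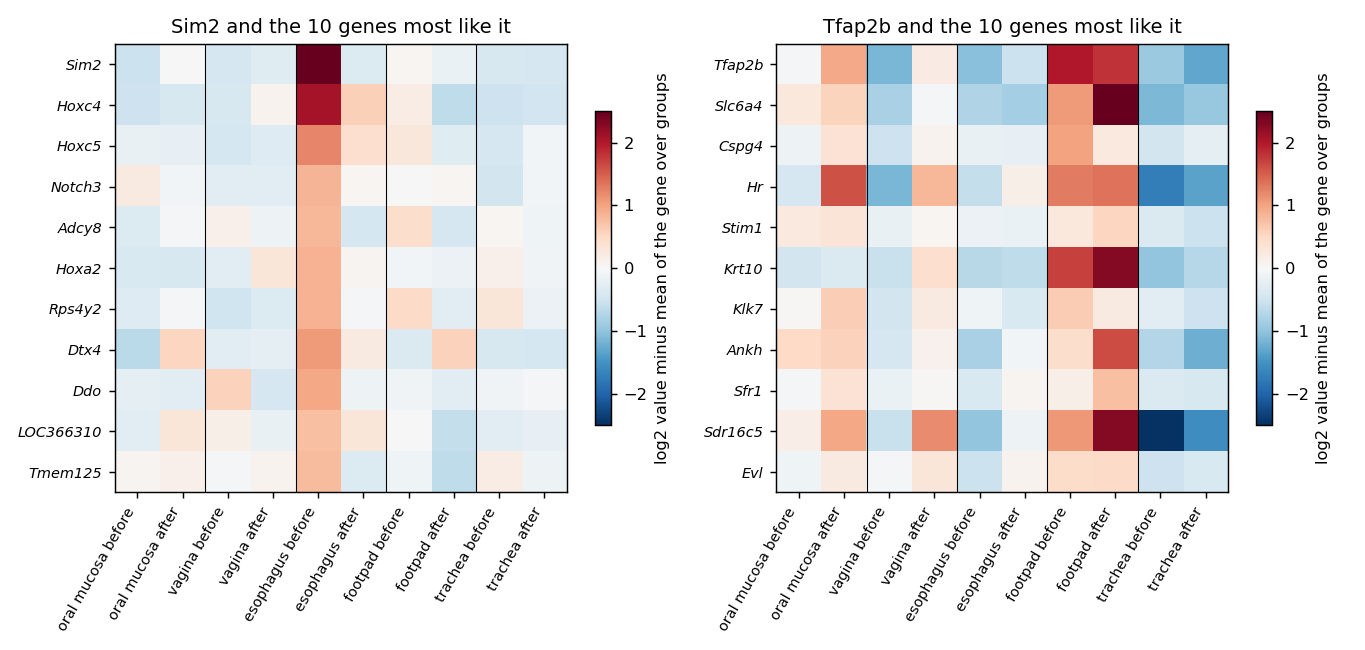
Mean log2 RMA value of each group minus the mean of that gene over the 10 groups, for Sim2 (left) and Tfap2b (right) and the 10 genes most like each by Pearson's r over group means, with red above and blue below the gene's own mean and colors limited at 2.5. The genes on the left share a red cell in esophagus before, and those on the right are red in footpad and mostly in recovered oral mucosa.

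Promoters were at hand for 7 of the 10 genes most like Sim2 and 7 of the 10 most like Tfap2b, and were searched on both strands over 250 bases before the start. Of the 7 like Sim2, 2 held ACGTG (16.6% of all 33469 promoters), 0 held GCCNNNGGC (12.6%) and 1 held TATAAA (12.9%). Of the 7 like Tfap2b, 1 held ACGTG, 0 held GCCNNNGGC and 1, Krt10, held TATAAA. A site that reads ACGTG on both strands counts on each strand as overlapping matches, and no other pair of these motifs overlapped by design. Notch3 is shown because it held 2 matches to ACGTG (in capitals, 1 on each strand), in GRCr8, chr7:11834586-11834835, minus strand.
Notch3: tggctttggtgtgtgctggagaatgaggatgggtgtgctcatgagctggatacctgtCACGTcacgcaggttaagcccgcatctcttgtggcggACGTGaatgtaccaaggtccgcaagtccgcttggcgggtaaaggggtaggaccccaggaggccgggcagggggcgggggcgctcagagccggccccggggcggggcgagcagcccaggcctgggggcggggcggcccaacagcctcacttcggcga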

How the data were processed

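Cells were compared on Affymetrix Rat Gene ST whole-transcript arrays, 100 ng of total RNA each, as 20 arrays of 5 tissues before and after transplantation. The authors deposited log2 values per probe set, for which the labels name RMA and Affymetrix Expression Console. In RMA, background correction, quantile normalization and a summary over probes can shrink differences of weakly expressed genes. Not given in the sources used here: tool versions, annotation build and which arrays were normalized together. Cells of whisker and thymus were not analysed here.

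Of the probe sets, 15310 had 1 symbol in the platform annotation, 323 had several and 13582 had none here. A RefSeq table of GRCr8 held 15279 of the gene IDs and changed 0 symbols. Where a symbol had several probe sets, the one of highest mean was taken. The number of arrays limits the precision.

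All 10 groups were fitted together with limma 3.58.1 (lmFit and eBayes, R 4.3.3), with 10 residual and 3.64 prior degrees of freedom and Benjamini-Hochberg adjustment per comparison over 29215 probe sets. Probe sets were called at an adjusted p under 0.05 and a fold over 2, as in the study. Counts at an unadjusted p under 0.05 are given without direction and without the matching share of all probe sets, so nothing is read from them. The fit was tested on simulated data. Tables and figures used Python 3.11.15, pandas 2.3.3, numpy 2.4.6 and matplotlib 3.10.9. The genes, lists and tests were chosen with earlier results of these data known. From each list at most 6 called genes with the largest differences were named, with partners, paralogs, the 10 most similar genes and the 5 symbols of largest tissue gap, and genes of small counts were named after their values were seen. Replicate numbers were not used to pair the samples in the main fit.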

Additional observations from a re-analysis of the deposited data

Results flagged for a closer look

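Sim2 and Tfap2b moved in opposite directions in different tissues, and these differences were not tested because the genes were chosen on them. Sim2 was 0.56 higher after than before transplantation in both oral mucosa arrays and −2.88 different in both esophagus arrays. Tfap2b was 0.98 higher in oral mucosa, 1.34 higher in vagina and 0.51 higher in esophagus, with no overlap of the arrays, while in trachea it was −0.37 different, with both arrays after below both before, and in footpad −0.18 different, where the arrays did not overlap either.

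For other genes of the lists, the response to transplantation in esophagus minus that in footpad passed limma's test itself, which called 9.4% of all probe sets. On the log2 scale with the SE of the fit, the difference of responses was 3.02 ± 0.29 for Mmp3 (limma adjusted p 2.75e-06) and 2.62 ± 0.26 for Ptgs2. Mmp3 rose in esophagus (1.83) and fell in footpad (−1.19), and it rose in oral mucosa (1.72) and vagina (1.25) too. Its relation to Sim2 was not tested. Among factors and receptors the difference of responses was −2.90 ± 0.14 for Ahr, 3.45 ± 0.17 for Isl1, −3.03 ± 0.15 for Pitx1 and −3.44 ± 0.21 for Erbb3 (limma adjusted p 5.41e-08). For Krt1 it was −1.99 ± 0.26, for Erbb2 −1.38 ± 0.13, for Mmp2 1.67 ± 0.20, for Tbx2 1.23 ± 0.28, for Tbx3 1.31 ± 0.16, for Irx3 −1.01 ± 0.18 and for Dlx5 1.20 ± 0.24. Of the 12 fibroblast markers, of which Mmp2 is not one, 8 were lower after transplantation in footpad, where 6.92% of all probe sets were called, and 0 in esophagus (0 at an unadjusted p under 0.05), where 1.07% were, and their part in these differences was not tested.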

How the results depend on the processing

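With arrays centered on their medians or single arrays left out, the esophagus values of Sim2 and the footpad values of Tfap2b moved by less than the SD of duplicates, whereas centering moved the oral mucosa difference of both by −0.14, more than that SD (0.133 and 0.126). With single arrays left out, the esophagus gap of Sim2 before was 2.37 to 2.62, its esophagus difference −2.96 to −2.79, the footpad gap of Tfap2b 1.93 to 2.12 before and 0.79 to 0.95 after, and its footpad difference −0.26 to −0.10. Other probe sets could not be tried, since each gene had 1. Without the fold threshold, calls after against before numbered 5950 in oral mucosa, 5802 in vagina, 3877 in esophagus, 9205 in footpad and 4407 in trachea, and against the other 4 tissues 2166 before and 5289 after in esophagus, and 7813 and 8331 in footpad. The single call in the AP-2 list became 0 with centered arrays, and 0 to 1 with single arrays left out. Spearman's rho kept 1 of the 10 genes most like Sim2 and 5 of those most like Tfap2b.

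With single arrays left out, calls after against before ran from 1018 to 1342 in oral mucosa, 618 to 727 in vagina, 287 to 344 in esophagus, 1885 to 2211 in footpad and 394 to 410 in trachea. Against the other 4 tissues they ran from 243 to 271 before and 341 to 373 after in esophagus, and 598 to 789 and 999 to 1250 in footpad. With the replicate number as a block, these counts were 1064, 646, 313, 2019, 404, 245, 349, 632 and 1089, within 1.5 times each. Deviations of same-numbered arrays correlated from −0.41 to 0.40 over 45 pairs of groups, 3 of them above 0.1. This check cannot exclude a pairing or batch in some groups.

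Of 54 results for named genes, 14 lost their call under some alternative and 0 reversed. Chosen after seeing the data, leaving out recovered footpad arrays took the esophagus count after from 350 to 244, and the calls of Isl1 (0.75), Krt10 (−0.41) and Krt1 (−0.21) there ended. Likewise chosen, leaving out the footpad arrays before took the esophagus count before from 246 to 294, and the calls of Pitx1 (0.80), Pax9 (0.82), Dlx5 (−0.95) and Mmp2 (−0.94) ended. Duplicates of 2 limit all comparisons, and Sim2 lay near the low end of the scale in 18 arrays.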
